A study of Mus musculus with 6 samples.

Results

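The genes described here are the collagen chains and a group of fibroblast matrix genes in mouse embryonic stem cells (mESCs) kept with or without a self-renewal cytokine. Members were taken by symbol from the deposited expression table: every symbol that reads Col, a number, a and a number, together with the lysyl oxidases (Lox, Loxl1, Loxl2, Loxl3, Loxl4), the lysyl hydroxylases (Plod1, Plod2, Plod3) and Bgn, Dcn, Lum, Fmod, Postn, Sparc, Fbn1, Fstl1, Thbs1 and Thbs2. This gave 60 of the 28584 symbols in the table. They comprise 11 fibrillar collagen chains, 5 basement membrane (type IV) chains, 26 other collagen chains and 18 other matrix genes. Col4a3, Col19a1 and Col21a1 were not analysed here.

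The study compared 3 culture conditions at passage 10 by poly-A RNA sequencing, with 2 libraries in each. All cells came from 1 line derived from C57BL/6 × 129S6 blastocysts, grown for 5 passages in serum medium with LIF on mouse embryonic fibroblast (MEF) feeders inactivated with mitomycin C. They were then moved to a basic serum medium with no cytokine (-LIF-ESCs), the same medium with 1000 U/mL leukemia inhibitory factor (LIF-ESCs), or the same medium with oncostatin M at 10 ng/mL (OSM-ESCs). Passage 10 counts the passages after this move and does not include the first 5. The sources used here do not say whether feeders were still present in these 3 media, and with 1 line the p-values cover only the spread between libraries of that line. LIF and OSM are cytokines of the interleukin-6 family that signal through the receptor subunit gp130, and the comparisons ask how the matrix genes of cells kept in OSM stand against cells kept in LIF and against cells with neither.

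Collagens are secreted proteins in which 3 chains wind into a triple helix. Fibrillar collagens (types I, II, III, V, XI and others) pack into fibrils, type IV collagen forms the sheet of basement membranes, and the remaining types decorate fibrils, build finer networks or span membranes. Lysyl hydroxylases modify the chains inside the cell and lysyl oxidases cross-link them outside it. In an embryo, abundant fibrillar collagen is a product of mesenchyme and fibroblasts, whereas type IV collagen is already made by the earliest epithelia.

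Levels are given as TPM, the unit deposited by the authors, which scales reads by gene length and by the total of the library. Depth recovered from the TPM values was 20712939 to 28994417 reads per library. Differences are log2 fold changes of TPM + 1, which understate the change of genes near 0, and were tested with limma across the 18556 genes at 1 TPM or more in at least 2 libraries. A gene was called higher or lower where its Benjamini-Hochberg adjusted p was under 0.05 and its log2 fold change reached 1 in that direction. Both comparisons against -LIF-ESCs use the same 2 -LIF-ESC libraries, and an exact permutation test of 2 against 2 libraries cannot give a p below 0.333. The 8 stem cell markers listed (Pou5f1, Sox2, Nanog and others) summed to 5423 to 5439 TPM in -LIF-ESCs, 7018 to 7064 TPM in LIF-ESCs and 6536 to 6573 TPM in OSM-ESCs, so stem cell transcripts were abundant in all 6 libraries. The genes of that list did not move together. At an adjusted p under 0.05 with no fold limit, 6 of the 8 were higher and 1 lower in each comparison. The shares of all genes were 42.2% higher and 25.9% lower with LIF, and 42.9% and 25.4% with OSM. Pou5f1 rose from 540 to 551 TPM without cytokine to 1147 to 1182 TPM with LIF and 1181 to 1190 TPM with OSM. Dppa5a, which gave the largest part of the sum, did not pass the test in either comparison. Nanog fell from 431 to 436 TPM without cytokine to 289 to 291 TPM with LIF and 252 to 270 TPM with OSM.

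Of the 60 members, 39 passed the filter on low values. The 21 that did not were Col11a2, Col24a1 and Col27a1 among the fibrillar chains, Col4a4 and Col4a6 among the type IV chains, Fmod, and 15 other collagens (Col6a4, Col6a5, Col6a6, Col8a2, Col9a1, Col13a1, Col14a1, Col15a1, Col17a1, Col20a1, Col22a1, Col23a1, Col25a1, Col26a1 and Col28a1). None of these reached a mean of 1 TPM in any group, and the highest single value among them was 1.10 TPM, for Col22a1 in a -LIF-ESC library. Since a gene could pass the filter through the groups in which it was high, the counts below describe the tested genes and not all 60.

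Where a promoter sequence was at hand it is shown for the fibrillar chains, whose share of the collagen transcripts was larger with either cytokine. RefSeq windows (GRCm38.p6, 250 bases before to 50 after the start) were matched for 44 of the 60 members. Among the 5 fibrillar genes called higher in both LIF-ESCs and OSM-ESCs, 3 had a window: Col1a2 (chr6:4505468-4505617, plus strand), Col3a1 (chr1:45311388-45311537, plus strand) and Col5a3 (chr9:20815068-20815217, minus strand). The last 150 bases before the start of each are printed 5′ to 3′ on the strand of the gene, with capitals for CCAAT or TATAAA on either strand.
Col1a2: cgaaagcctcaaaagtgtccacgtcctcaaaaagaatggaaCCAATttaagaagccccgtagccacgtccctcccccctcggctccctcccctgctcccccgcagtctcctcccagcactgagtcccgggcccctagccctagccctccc
Col3a1: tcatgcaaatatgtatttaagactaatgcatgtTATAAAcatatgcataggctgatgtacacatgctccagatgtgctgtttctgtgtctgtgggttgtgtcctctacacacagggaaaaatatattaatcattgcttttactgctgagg
Col5a3: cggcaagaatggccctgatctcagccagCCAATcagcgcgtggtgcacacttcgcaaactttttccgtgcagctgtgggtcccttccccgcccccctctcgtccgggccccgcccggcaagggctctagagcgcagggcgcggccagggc

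These 3 stretches share no one motif. The letters CCAAT occur within 250 bases before the start, on either strand, in 33.8% of all 32851 windows and in 15 of the 48 windows of members (31.2%). TATAAA occurs in 12.4% of all windows and in 8 of the 48. TTCNNNGAA, the palindrome to which STAT proteins, the transcription factors downstream of gp130, are known to bind, occurs in 7.02% of all windows and in 2 of the 48, upstream of Col28a1 and Col6a5, neither of which passed the filter. TGANTCA, the site known for AP-1, occurs in 6.75% of all windows and in 1 of the 48, upstream of Col6a1. Matches that overlap another motif were kept.

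Against -LIF-ESCs, most tested members rose with either cytokine, and Lox, Bgn and Thbs2 had the largest differences. With LIF, 25 of the 39 were called higher and 1 lower, where 13.3% and 8.09% of all genes tested were called. In OSM-ESCs 25 were called higher and 1 lower, against 14.2% and 7.86% of all genes tested. The same 25 genes were called higher in both comparisons. With no limit on the fold change, 32 members rose and 4 fell in LIF-ESCs (42.2% and 25.9% of all genes), and 32 rose and 3 fell in OSM-ESCs (42.9% and 25.4%).

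The median log2 fold change of the tested members was 1.51 with LIF and 1.84 with OSM, where the medians of all genes tested were 0.17 and 0.18. Rescaling the libraries by the median ratio brought the all-gene medians to 0.02 in both comparisons and left 23 and 24 members called higher. Col4a2 dropped below the fold limit in both comparisons and Loxl2 in the first. With no fold limit, rescaling took the members higher from 32 to 30 with LIF and from 32 to 29 with OSM. In OSM-ESCs, Col7a1 and Plod2 passed as lower only after rescaling (log2 -0.37 and -0.22, adjusted p by limma = 0.0208 and 0.00952). Over all genes tested, those higher went from 7822 to 6411 and from 7958 to 6391. Those lower went from 4809 to 6116 and from 4722 to 6114. Bulk RNA cannot tell fewer cells of a type from less RNA per cell, and this applies to every level below.

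The list of fibroblast markers moved with these genes. Of its 12 genes, 10 were tested and 8 were called higher in both comparisons, beside 13.3% and 14.2% of all genes. The summed level was 24.0 to 25.4 TPM in -LIF-ESCs, 147 to 150 TPM in LIF-ESCs and 202 to 203 TPM in OSM-ESCs. Its most abundant genes were Thy1 (5.78 to 7.96, 46.7 to 46.9 and 63.8 to 64.1 TPM in the same order) and S100a4 (2.42 to 2.76, 27.9 to 29.6 and 40.8 to 42.2 TPM). Prrx1, with the largest log2 fold change of the list with LIF (3.98), stood at 0.0399 to 0.155 TPM in -LIF-ESCs, 15.9 to 16.8 TPM in LIF-ESCs and 21.5 to 21.6 TPM in OSM-ESCs. Pdgfrb and Cd34 stayed inside the fold limit with LIF (log2 0.23 and 0.26, adjusted p by limma = 0.0425 and 0.0861). Osr1 stood at 0 to 0.0520 TPM, 2.68 to 3.22 TPM and 3.50 to 3.83 TPM. Fap was at 0 in both -LIF-ESC libraries, and Tcf21 was at 0 in replicate 1 of LIF-ESCs and of OSM-ESCs and stayed under 1 TPM in every library. Their part in the results for the matrix genes was not tested.

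**Figure D1:**
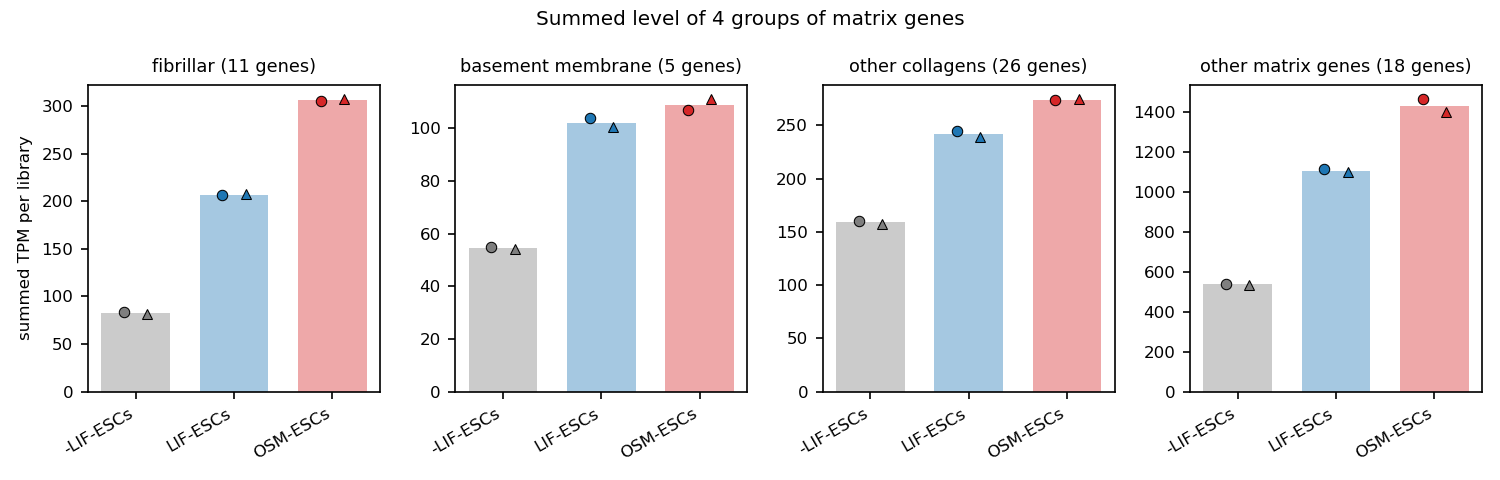
Summed TPM per library (y axis, linear from 0) of the 11 fibrillar, 5 basement membrane and 26 other collagen chains and the 18 other matrix genes, with bars for the mean of the 2 libraries of a group, circles for replicate 1 and triangles for replicate 2. Fibrillar chains summed to 82.7 TPM in -LIF-ESCs, 207 TPM in LIF-ESCs and 306 TPM in OSM-ESCs, whereas the basement membrane chains were near each other in LIF-ESCs and OSM-ESCs (102 and 109 TPM).

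Summed by class, the fibrillar chains gained most among the 3 collagen classes. The 11 fibrillar chains summed to 82.7 ± 1.96 TPM in -LIF-ESCs (SD, n = 2), 207 ± 0.421 TPM in LIF-ESCs and 306 ± 1.51 TPM in OSM-ESCs. The type IV chains went from 54.6 ± 0.512 to 102 ± 2.33 and 109 ± 2.92 TPM, with the lower OSM-ESC library (107 TPM) just above both LIF-ESC libraries (101 and 104 TPM). The remaining collagens summed to 159 ± 1.78, 242 ± 4.28 and 274 ± 0.635 TPM. Fibrillar chains therefore made up 27.7% to 28.1% of all collagen TPM without cytokine, 37.2% to 37.9% with LIF and 44.3% to 44.5% with OSM, and these ranges do not overlap. The 18 other matrix genes summed to 538 ± 3.33, 1106 ± 11.5 and 1431 ± 46.7 TPM. Gene by gene the fibrillar chains and other collagens were closer than their sums. Median log2 fold changes with LIF and OSM were 1.67 and 2.15 for tested fibrillar chains, and 1.73 and 2.04 for other collagens. Col18a1 alone gave 133 of the 159 TPM of the other collagens in -LIF-ESCs.

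Type I collagen, the main fibril former of skin, tendon and bone, is built from 2 chains of Col1a1 and 1 of Col1a2. Col1a1 stood at 25.0 and 22.8 TPM in the -LIF-ESC libraries, 86.4 and 88.6 TPM in LIF-ESCs and 134 and 138 TPM in OSM-ESCs. Col1a2 stood at 5.41 and 5.63, 44.6 and 43.9, and 62.7 and 62.7 TPM. For both genes the 3 groups formed separate steps with OSM-ESCs on top. Col1a1 rose by 1.83 ± 0.0545 (log2, SE) with LIF (adjusted p = 1.02e-05) and by 2.46 ± 0.0545 with OSM (adjusted p = 4.8e-06). Col1a2 rose by 2.80 ± 0.0443 and 3.29 ± 0.0443 (adjusted p = 2.35e-06 and 1.61e-06).

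Type III collagen accompanies type I in stretchable tissue and type V collagen starts the fibrils and sets their width. Col3a1, the only chain of type III, was at 0.477 and 0.449 TPM in -LIF-ESCs (53 and 41 reads), 17.0 and 16.2 TPM in LIF-ESCs and 23.0 and 21.5 TPM in OSM-ESCs. Its log2 fold changes of 3.59 and 3.99 were the largest of the fibrillar chains. Col5a2 was at 1.64 and 1.95, 28.4 and 28.4, and 41.4 and 40.5 TPM, which gave 3.40 and 3.91. Col5a3, a minor type V chain, stayed under 5 TPM but rose as well (1.51 and 1.84, adjusted p = 0.000225 and 0.00011). Col3a1 and Col5a2 lie next to each other on chromosome 1, on opposite strands and 24615 bases apart (GRCm38).

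Col5a1, the partner of Col5a2 in the common type V molecule, did the opposite. It was at 43.6 and 42.3 TPM in -LIF-ESCs, 24.0 and 23.9 TPM in LIF-ESCs and 36.1 and 36.2 TPM in OSM-ESCs. Thus its highest level was in cells without cytokine and its lowest in LIF-ESCs, with no overlap between groups. The log2 fold change was -0.82 ± 0.0406 with LIF (adjusted p = 4.24e-05) and -0.24 ± 0.0406 with OSM (adjusted p = 0.00345), past the adjusted p and inside the fold limit. Col5a1 provided 51.9% to 52.0% of fibrillar TPM in -LIF-ESCs but 11.5% to 11.8% in the other 4 libraries.

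The one member called lower was Col2a1, the fibrillar collagen of cartilage and notochord. Its level was 5.77 and 5.96 TPM in -LIF-ESCs, 0.842 and 0.924 TPM in LIF-ESCs and 1.15 and 1.21 TPM in OSM-ESCs. It fell by 1.87 ± 0.105 (log2) with LIF (adjusted p = 6.25e-05) and fell by 1.66 ± 0.105 with OSM (adjusted p = 9.13e-05). Col11a1, which joins Col2a1 in cartilage fibrils, was between 0.776 and 1.47 TPM in all libraries and did not pass the test (adjusted p = 0.23 and 0.0757).

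**Figure D2:**
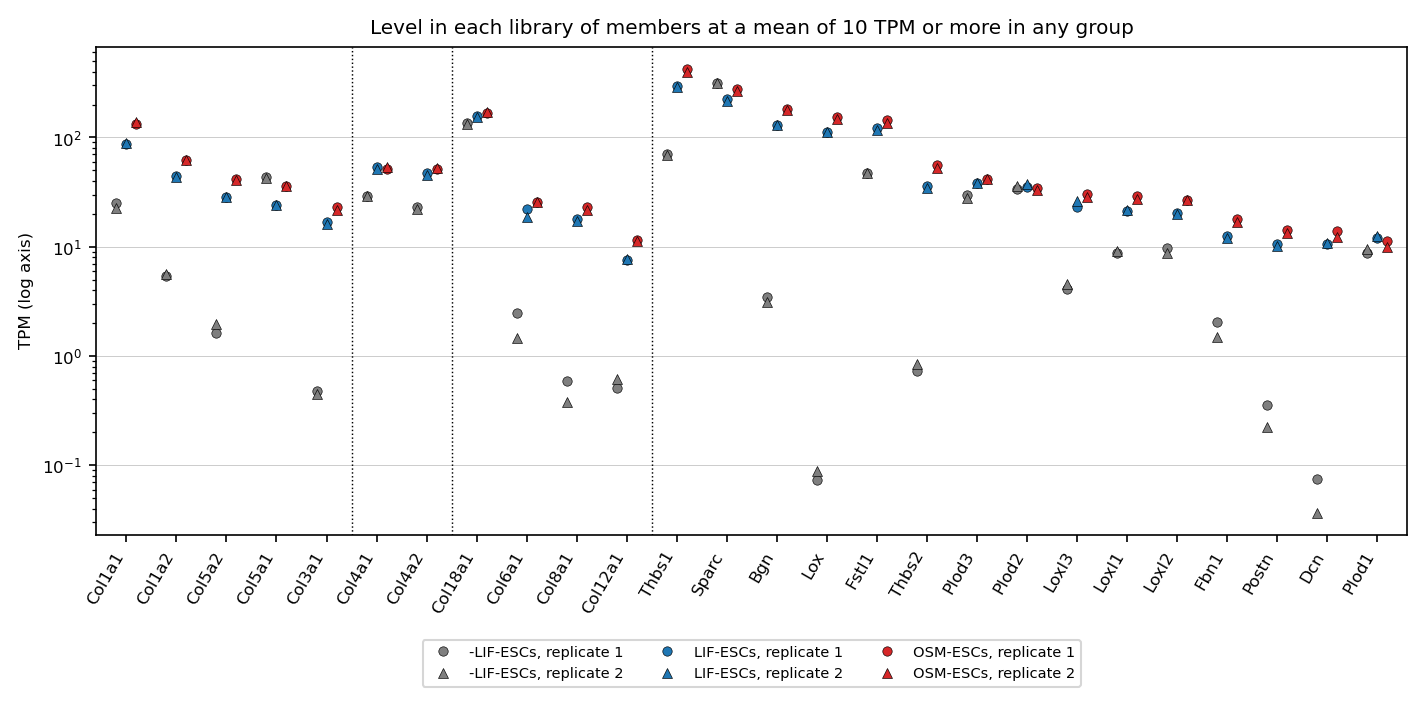
TPM in each library (y axis, log scale) of the 26 members with a mean of at least 10 TPM in any group, with -LIF-ESCs in grey, LIF-ESCs in blue and OSM-ESCs in red, circles for replicate 1 and triangles for replicate 2, and dotted lines between fibrillar, basement membrane and other collagens and other matrix genes. Lox and Dcn were under 0.1 TPM in -LIF-ESCs and above 10 TPM in the other 4 libraries, while Col5a1 and Sparc were highest in -LIF-ESCs.

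Type IV collagen of most basement membranes is made of 2 Col4a1 chains and 1 Col4a2 chain. Both genes were already expressed without cytokine, and both rose less than the 5 fibrillar chains called higher. Col4a1 was at 29.4 and 29.4 TPM in -LIF-ESCs, 53.7 and 51.8 TPM in LIF-ESCs and 51.6 and 53.9 TPM in OSM-ESCs. LIF-ESCs and OSM-ESCs overlapped for this gene, and each stood 0.82 ± 0.0433 (log2) above -LIF-ESCs (adjusted p = 5.05e-05 and 4.97e-05). Col4a2 was at 22.9 and 22.0, 46.9 and 45.4, and 51.2 and 52.8 TPM, a rise of 1.01 ± 0.0448 and 1.18 ± 0.0448 (adjusted p = 3.11e-05 and 1.93e-05). The call of Col4a2 in LIF-ESCs rests on the fold limit: it came to 0.98 without replicate 2 of -LIF-ESCs and 0.99 without replicate 1 of LIF-ESCs.

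These paired genes face away from each other on chromosome 8. Their RefSeq starts overlap by 22 bases (chr8:11312805-11312826, GRCm38.p6), printed here from the plus strand, the strand of Col4a2, because it is where the first bases of both transcripts lie.
Col4a1 and Col4a2: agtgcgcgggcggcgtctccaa

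A second pair, Col4a5 on the plus strand and Col4a6 on the minus strand of chromosome X, have starts 1344 bases apart in RefSeq. Col4a5 rose in both comparisons within the fold limit, from 1.99 and 2.16 TPM to 3.06 and 3.18 TPM in LIF-ESCs and 4.07 and 4.21 TPM in OSM-ESCs (log2 0.42 and 0.74, adjusted p = 0.0098 and 0.00114). Col4a6 was not tested, and its mean was 0.610 TPM in -LIF-ESCs, 0.150 TPM in LIF-ESCs and 0.215 TPM in OSM-ESCs. Col4a4, a chain of kidney and inner ear basement membranes, stayed at or below 0.101 TPM.

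Among the remaining collagens, the fibril-bound Col12a1 and Col16a1, the short-chain Col8a1 and Col10a1 and the type VI chains rose. Of 11 tested, 7 were called higher in both comparisons and none lower. With limma and no fold limit, Col7a1 fell in LIF-ESCs. Col8a1, a short-chain network collagen of vessel wall and eye, was at 0.588 and 0.379 TPM in -LIF-ESCs, 17.9 and 17.4 TPM in LIF-ESCs and 23.3 and 21.8 TPM in OSM-ESCs, the largest log2 fold changes of the class (3.65 and 3.99). Col12a1, which bridges type I fibrils, was at 0.510 and 0.614, 7.56 and 7.66, and 11.6 and 11.2 TPM (2.46 and 2.98). Col16a1, another fibril-associated chain, reached 5.84 and 6.29 TPM in LIF-ESCs and 8.02 and 8.89 TPM in OSM-ESCs from 0.890 and 1.24 TPM (1.78 and 2.20).

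Type VI collagen, which forms beaded filaments around cells, needs the chains of Col6a1, Col6a2 and Col6a3, and all 3 were called higher. Col6a1 was at 2.48 and 1.45 TPM in -LIF-ESCs, 22.1 and 18.7 TPM in LIF-ESCs and 25.8 and 25.6 TPM in OSM-ESCs (log2 2.87 and 3.19). Col6a2 was at 1.34 and 1.06, 6.31 and 6.26, and 8.26 and 7.77 TPM (1.73 and 2.04). Col6a3, with 16 and 8 reads in -LIF-ESCs, was at 0.118 and 0.0719, 2.77 and 3.28, and 4.06 and 4.59 TPM (1.88 and 2.28). No library of -LIF-ESCs reached the lowest value of the other groups for any of these chains. The alternative chains Col6a4, Col6a5 and Col6a6 stayed under 1 TPM.

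Col10a1, the network collagen of growth plate cartilage, had 3 and 1 reads in -LIF-ESCs and stood at 2.21 and 1.74 TPM in LIF-ESCs and 2.72 and 2.40 TPM in OSM-ESCs (1.49 and 1.75). Col18a1, the precursor of endostatin and a basement membrane component, was the most abundant collagen without cytokine at 135 and 132 TPM and remained near that level, at 158 and 154 TPM in LIF-ESCs and 168 and 171 TPM in OSM-ESCs. It gained 0.23 (log2) with LIF (adjusted p = 0.00186) and 0.35 with OSM (adjusted p = 0.000375), but 0.05 and 0.16 after rescaling by the median ratio (adjusted p = 0.225 and 0.0107). Its share of all collagen TPM was 45.0% in both -LIF-ESC libraries, 28.2% to 28.4% with LIF and 24.6% in both OSM-ESC libraries.

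Col7a1, the anchoring fibril collagen of skin, was at 3.03 and 2.99 TPM in -LIF-ESCs, 1.76 and 1.70 TPM in LIF-ESCs and 2.34 and 2.49 TPM in OSM-ESCs. The log2 fold change was -0.55 with LIF (adjusted p = 0.00454) and -0.23 with OSM (adjusted p = 0.0876). After rescaling by the median ratio, the values for Col7a1 were -0.68 and -0.37 (adjusted p = 0.00218 and 0.0208), so both passed. Col9a2 and Col9a3, chains of a cartilage fibril-associated collagen, were highest in LIF-ESCs, at 8.78 and 9.46 TPM and at 7.55 and 8.29 TPM. Their log2 fold changes against -LIF-ESCs lay between 0.22 and 0.53, and between 0.05 and 0.39 after rescaling.

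**Figure D3:**
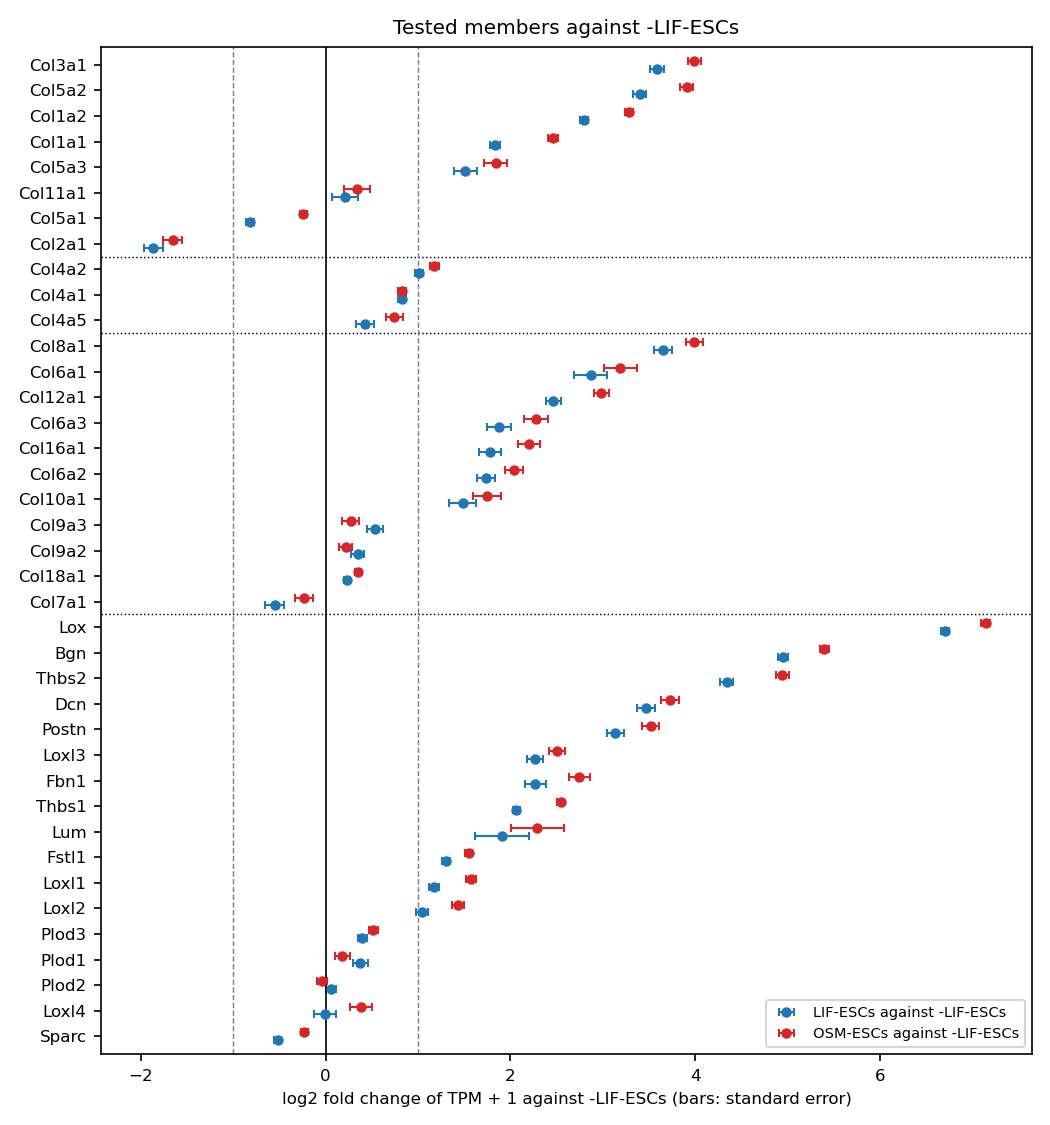
Log2 fold change of TPM + 1 (x axis) against -LIF-ESCs for each of the 39 tested members (y axis), in LIF-ESCs (blue) and OSM-ESCs (red), with bars for the standard error, dashed lines at the fold limit of 1 and dotted lines between classes. The values run from -1.87 for Col2a1 to 7.14 for Lox, and red lies to the right of blue for most genes.

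Of the 17 other matrix genes tested, 12 were called higher in both comparisons and none lower. Sparc fell by less than the fold limit, and Plod2 did not pass in either comparison. Lox, the enzyme that cross-links collagen and elastin, had the largest difference of all members. It was at 0.0735 and 0.0894 TPM in -LIF-ESCs, which is about 4 reads in each library, 112 and 112 TPM in LIF-ESCs and 155 and 149 TPM in OSM-ESCs. Its log2 fold changes were 6.71 ± 0.0451 and 7.14 ± 0.0451 (adjusted p = 4.67e-07 and 3.33e-07). For Lox, Thbs2 and Col8a1 the recovered reads were not whole numbers, so their read counts are approximate.

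The Lox relatives were expressed without cytokine, and 3 of the 4 were called higher in both comparisons, with smaller changes than Lox. Loxl1, which acts on elastic fibres, went from 8.81 and 9.06 TPM to 21.3 and 21.6 TPM in LIF-ESCs and 29.4 and 27.6 TPM in OSM-ESCs (log2 1.18 and 1.57). Loxl2, which acts on type IV collagen among others, went from 9.82 and 8.73 TPM to 20.3 and 20.0 and to 26.9 and 26.6 TPM (1.04 and 1.44), with 0.97 in LIF-ESCs when replicate 2 of -LIF-ESCs was left out. Loxl3 went from 4.14 and 4.55 TPM to 23.3 and 26.3 and to 30.5 and 28.3 TPM (2.27 and 2.51). Loxl4 was at 2.83 and 2.86, 3.09 and 2.58, and 3.67 and 4.38 TPM, with a log2 fold change of -0.01 with LIF (adjusted p = 0.962) and 0.38 with OSM (adjusted p = 0.0362). After rescaling, the OSM value for Loxl4 was 0.24 and did not pass (adjusted p = 0.147).

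The lysyl hydroxylases changed little beside the lysyl oxidases. Plod2, which hydroxylates the ends of collagen chains, was between 32.9 and 37.1 TPM in all libraries (log2 0.05 and -0.04, adjusted p = 0.426 and 0.516). Plod1 lay between 8.80 and 12.5 TPM, with 0.38 for LIF (adjusted p = 0.0102) and 0.18 for OSM (adjusted p = 0.107). Plod3 rose from 29.8 and 27.8 TPM to 38.0 and 38.4 and to 41.5 and 41.7 TPM (0.39 and 0.52). After rescaling, Plod1 stood at 0.22 and 0.01 and Plod2 at -0.12 and -0.22 (adjusted p = 0.0821 and 0.00952), so the sign for Plod2 in LIF-ESCs depended on the scaling.

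Small leucine-rich proteoglycans bind fibrils and space them. Bgn (biglycan) was at 3.45 and 3.10 TPM in -LIF-ESCs, 131 and 131 TPM in LIF-ESCs and 181 and 178 TPM in OSM-ESCs (log2 4.95 and 5.40). Dcn (decorin), with 5 and 2 reads in -LIF-ESCs, was at 10.5 and 10.9 TPM in LIF-ESCs and 13.9 and 12.2 TPM in OSM-ESCs (3.47 and 3.73). Its neighbour on chromosome 10, Lum (lumican), had 4 and 2 reads in -LIF-ESCs and stood at 4.40 and 2.26 TPM in LIF-ESCs and 5.50 and 3.60 TPM in OSM-ESCs (1.91 and 2.29). On the log2(TPM + 1) scale Lum had the largest standard error of the tested members (0.29), and LIF-ESCs overlapped OSM-ESCs. Fmod (fibromodulin) was not tested, with 0 and 2 reads in -LIF-ESCs and means of 0.722 and 0.791 TPM in LIF-ESCs and OSM-ESCs.

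The thrombospondins, matricellular proteins that bind many matrix partners, were among the most abundant members. Thbs1 was at 69.9 and 69.3 TPM in -LIF-ESCs, 297 and 292 TPM in LIF-ESCs and 422 and 401 TPM in OSM-ESCs, the highest level of any member in the last group (log2 2.07 and 2.55). Thbs2 was at 0.731 and 0.853, 36.2 and 34.6, and 56.2 and 52.1 TPM (4.34 and 4.94). In both genes the groups stood in the same order without overlap.

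Postn (periostin), a matricellular protein of periosteum and injured tissue, was at 0.355 and 0.222 TPM in -LIF-ESCs, 10.6 and 10.1 TPM in LIF-ESCs and 14.1 and 13.4 TPM in OSM-ESCs (log2 3.14 and 3.52). Fbn1 (fibrillin), the backbone of microfibrils, was at 2.03 and 1.48, 12.5 and 11.9, and 18.1 and 16.8 TPM (2.27 and 2.75). Fstl1, a secreted glycoprotein, was at 47.5 and 47.7, 121 and 117, and 145 and 137 TPM (1.31 and 1.55). Each of these 3 genes rose in both comparisons with no overlap between groups, although most genes tested also did not overlap with -LIF-ESCs.

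Sparc (osteonectin), which binds collagen and is also abundant in parietal endoderm, was the most abundant member in -LIF-ESCs at 318 and 314 TPM. It was at 225 and 216 TPM in LIF-ESCs and 275 and 264 TPM in OSM-ESCs, which is a log2 change of -0.52 ± 0.0369 (adjusted p = 0.000137) and -0.23 ± 0.0369 (adjusted p = 0.00285). As for Col5a1, LIF-ESCs were lowest and OSM-ESCs intermediate.

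A set of 6 members had a mean under 1 TPM without cytokine and at least 10 TPM with either one: Col3a1, Col8a1, Lox, Dcn, Postn and Thbs2. This set was picked after the levels were seen and is given as a description. At the other end, 10 members had at least 10 TPM in all 3 groups (Col1a1, Col4a1, Col4a2, Col5a1, Col18a1, Plod2, Plod3, Sparc, Fstl1 and Thbs1).

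Between the cytokines, the members stood slightly higher with OSM. At an adjusted p under 0.05 with limma, 7 of the 39 were higher in OSM-ESCs and 0 lower, where 0.463% and 0.129% of all genes tested passed. With the fold limit of 1 none was called in either direction, as for all but 0.0323% (higher) and 0.0485% (lower) of all genes. At an unadjusted p under 0.05, 29 were higher and 1, Col9a3, was lower, against 9.8% and 5.5% of all genes. The OSM-ESC libraries lay above both LIF-ESC libraries for 33 members and below them for 4, where the shares of all genes were 26.3% and 20.9%.

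The median log2 difference of the tested members was 0.33, beside 0.01 for all genes tested. By class it was 0.45 for the 8 fibrillar chains, 0.17 for the 3 type IV chains, 0.32 for the 11 other collagens and 0.38 for the 17 other matrix genes. Over all genes, the main fit had 86 higher and 24 lower at an adjusted p under 0.05, and voom on the recovered reads had 971 and 475. There were 8 and 4 with eBayes without a trend, and 0 and 0 with only the 2 groups compared. The 7 calls depend on the fit. None of them passed when only the 2 groups compared were fitted or when eBayes was run without a trend, while voom on the recovered reads passed 28 higher and 0 lower. With any 1 of the 6 libraries left out, the median log2 difference of the tested members was 0.31 to 0.36.

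The 3 collagens among the 7 were fibrillar. Col1a1 was 0.63 (log2) higher in OSM-ESCs, with a 95% interval of 0.49 to 0.77 (adjusted p = 0.0297). Col5a1 was 0.58 higher (0.47 to 0.68, adjusted p = 0.0256) and Col1a2 0.49 higher (0.38 to 0.61, adjusted p = 0.03). The libraries given above show no overlap for any of these, and as ratios of mean TPM the differences were 1.56, 1.51 and 1.42. Col5a2 and Col3a1 had differences of 0.51 and 0.40 that did not pass (adjusted p = 0.0624 and 0.0951).

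The other 4 were matrix genes. Thbs2 was 0.60 higher (0.42 to 0.77, adjusted p = 0.0463), Thbs1 0.48 higher (0.39 to 0.57, adjusted p = 0.026), Bgn 0.45 higher (0.32 to 0.58, adjusted p = 0.0463) and Lox 0.44 higher (0.32 to 0.55, adjusted p = 0.0418). Every OSM-ESC library of these genes was above both LIF-ESC libraries, by 1.36 to 1.53 times in mean TPM. Sparc was just outside the threshold at 0.29 (0.19 to 0.38, adjusted p = 0.0592).

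The type IV chains had the smallest median difference of the 4 classes. The difference for Col4a1 was -0.00 with a 95% interval of -0.11 to 0.11, which leaves room for a change of that size in either direction. Col4a2 was 0.17 higher in OSM-ESCs (0.06 to 0.28, adjusted p = 0.19) and Col4a5 0.32 higher (0.08 to 0.55, adjusted p = 0.219). The members with lower values in OSM-ESCs beside Col4a1 were Col9a3 (-0.26, adjusted p = 0.269), Col9a2 (-0.13), Plod1 (-0.20) and Plod2 (-0.10), and none passed.

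**Figure D4:**
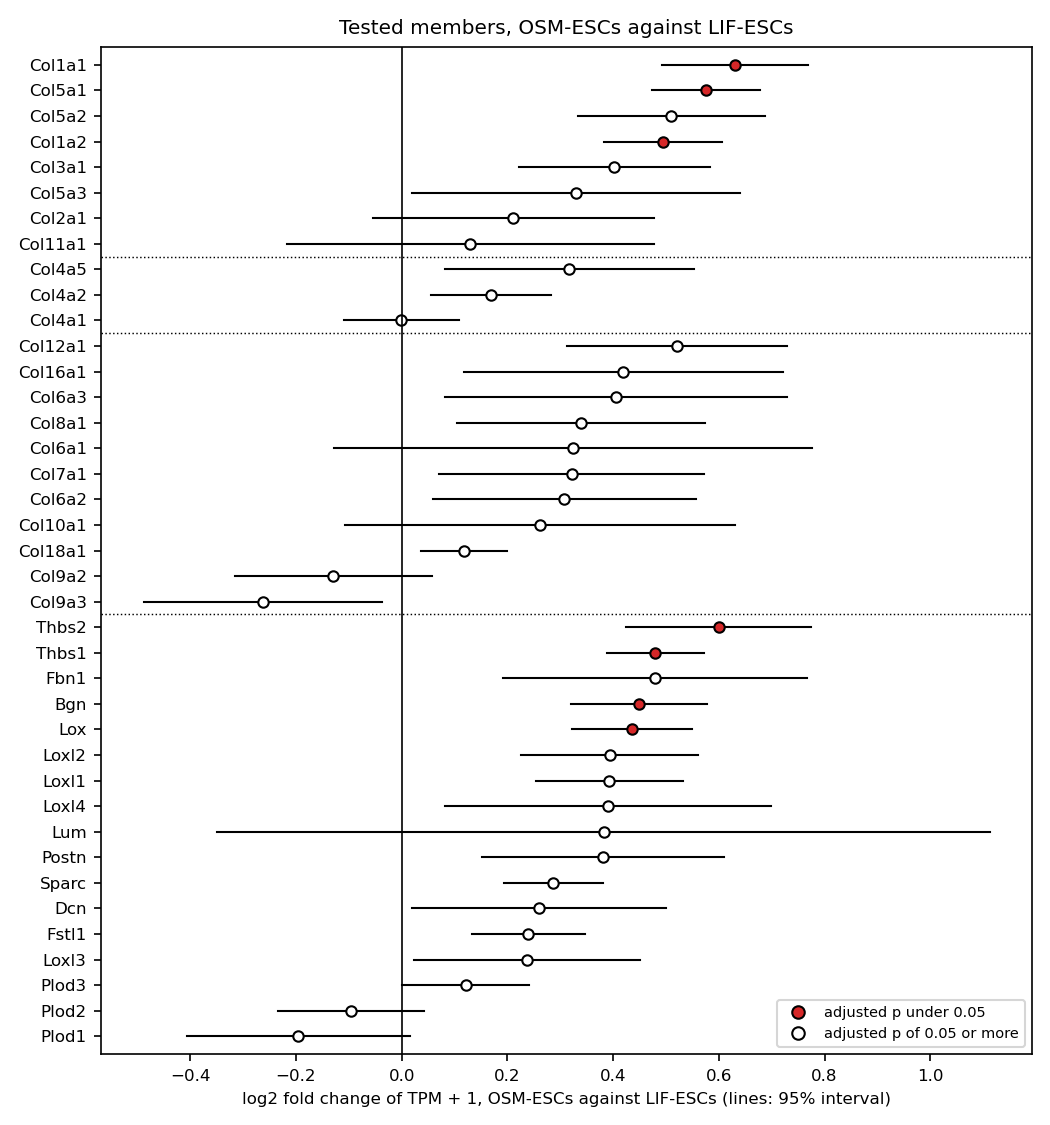
Log2 fold change of TPM + 1 in OSM-ESCs against LIF-ESCs (x axis) for the 39 tested members (y axis), with lines for the 95% interval, filled circles for the 7 members with an adjusted p under 0.05 and dotted lines between classes. All 8 fibrillar chains lie to the right of 0, with Col1a1 furthest at 0.63, and Col4a1 sits at 0.

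Chains that share a molecule did not keep a fixed ratio. The level of Col1a1 relative to Col1a2 was 4.63 and 4.04 in the -LIF-ESC libraries, 1.94 and 2.02 with LIF and 2.14 and 2.20 with OSM. Both -LIF-ESC libraries lay above the other 4, whose ratios were near 2. The 95% interval from counting error was 4.25 to 5.03 in replicate 1 of -LIF-ESCs and 1.86 to 2.01 in replicate 1 of LIF-ESCs.

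For type V collagen the ratio crossed 1. Col5a1 was at 26.6 and 21.7 times the level of Col5a2 in -LIF-ESCs, 0.843 and 0.840 times with LIF and 0.872 and 0.893 times in OSM-ESCs. This reflects the values above, in which Col5a2 rose and Col5a1 fell. For the head-to-head pair Col4a1 and Col4a2 the ratio was 1.29 and 1.34, 1.15 and 1.14, and 1.01 and 1.02, so that Col4a2 drew level with Col4a1 in OSM-ESCs. The 3 groups did not overlap, although the steps are small.

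The type VI ratio of Col6a1 to Col6a2 was 1.86 and 1.37 in -LIF-ESCs (59 to 126 reads per chain), 3.50 and 2.98 with LIF and 3.12 and 3.29 with OSM. These chains also lie on 1 chromosome, 85162 bases apart on chromosome 10. Col4a5 to Col4a6 was 3.04 and 3.81 in -LIF-ESCs and between 15.7 and 25.2 in the other 4 libraries, which held 10 to 26 reads of Col4a6 each. For both ratios LIF-ESCs and OSM-ESCs overlapped. No test was run on these ratios.

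**Figure D5:**
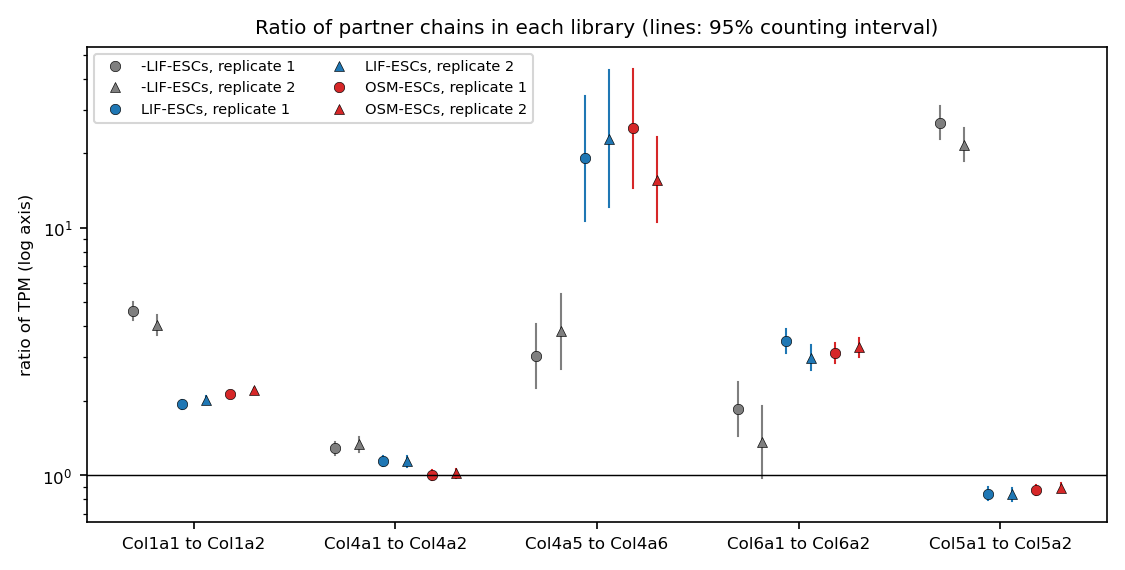
Ratio of TPM between the 2 chains of each pair (y axis, log scale) in each library, with -LIF-ESCs in grey, LIF-ESCs in blue, OSM-ESCs in red, circles for replicate 1, triangles for replicate 2 and lines for the 95% counting interval. Col5a1 to Col5a2 falls from above 20 to below 1 with either cytokine, and Col1a1 to Col1a2 falls from above 4 to about 2.

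Genes that make and export collagen had smaller median changes (0.29 and 0.39 for modification and folding, 0.60 and 0.72 for export and trimming) than the tested members (1.51 and 1.84). Of 14 tested genes for chain modification and folding, 3 were called higher in both comparisons and 0 lower by limma, while with no fold limit 4 fell with LIF and 3 with OSM. These counts are near the shares of all genes (13.3% and 14.2% called higher, 25.9% and 25.4% lower with no fold limit). With no fold limit 9 of the 14 were higher in each comparison, beside 42.2% and 42.9% of all genes. P4ha3, a prolyl 4-hydroxylase subunit, had the largest difference, from 0.197 and 0 TPM to 5.24 and 4.70 TPM in LIF-ESCs and 6.79 and 6.02 TPM in OSM-ESCs (log2 2.45 and 2.76). The main subunit P4ha1 fell from 50.9 and 50.8 TPM to 30.3 and 28.8 and to 30.3 and 29.2 TPM (-0.77 and -0.76), and P4hb, its partner, fell from 418 and 429 TPM to 229 and 239 and to 257 and 243 TPM (-0.85 and -0.76). Serpinh1, the collagen chaperone HSP47, was at 204 to 205, 244 to 250 and 287 TPM.

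Of 10 tested genes for export and propeptide removal, 2 were called higher in LIF-ESCs and 3 in OSM-ESCs, with 0 lower by limma and Sec24d falling within the fold limit in both. The shares of all genes called higher were 13.3% and 14.2%. The counts called higher rest on only 10 genes and were not tested against these shares. With no fold limit 8 of the 10 were higher in each comparison, beside 42.2% and 42.9% of all genes. Tll1, a protease of the Bmp1 family that trims procollagen, was highest in fold change (1.52 and 1.91) at 4.71 TPM or less. Pcolce, the enhancer of that cleavage, went from 19.1 and 15.8 TPM to 42.7 and 41.7 and to 45.8 and 44.8 TPM (1.23 and 1.33). Bmp1 itself stood at 0.59 in LIF-ESCs and 1.02 in OSM-ESCs.

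Other matrix genes of fibroblasts included the largest differences of these lists. Of 16 tested, 8 were called higher in both comparisons and 0 lower, with Fbln1, Mfap4 and Tgfbi falling within the fold limit. The shares of all genes were 13.3% and 14.2% called higher, and 8.09% and 7.86% called lower. Tnc (tenascin C), a glycoprotein of embryonic and injured mesenchyme, was at 2.51 and 2.14 TPM in -LIF-ESCs, 197 and 194 TPM in LIF-ESCs and 289 and 280 TPM in OSM-ESCs (5.89 and 6.42). Fbln2 (fibulin 2) was at 1.73 and 1.82, 115 and 116, and 156 and 157 TPM. These 2 genes and Fn1 (fibronectin), at 237 to 239, 377 to 383 and 449 to 458 TPM, also stood above LIF-ESCs in OSM-ESCs, by 0.54, 0.43 and 0.25 (adjusted p = 0.0463, 0.0327 and 0.0463). With only the groups compared in the fit, no gene of the whole table was higher past that threshold, so these 3 calls depend on the fit as those of the members do.

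Among 7 genes whose products join type IV collagen in basement membranes, 3 were called higher in LIF-ESCs (Lama1, Lamc1 and Nid1) and 2 in OSM-ESCs (Lama1 and Nid1), with Nid2 lower within the fold limit. Of all genes, 13.3% and 14.2% were called higher. Lama1, the laminin alpha chain of the early embryo, was at 4.55 and 3.53 TPM in -LIF-ESCs, 33.8 and 34.6 TPM in LIF-ESCs and 19.3 and 18.7 TPM in OSM-ESCs. Unlike the fibrillar chains it was lower with OSM than with LIF, by a difference of -0.81 that did not pass (adjusted p = 0.0577). Nid1 (nidogen) was at 19.6 and 21.0, 66.6 and 64.7, and 71.1 and 68.1 TPM (1.65 and 1.73).

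Markers of early endoderm, which makes type IV collagen, laminin and Sparc, were low in all groups. Of 10 listed, 7 were tested, of which 5 were called higher in LIF-ESCs and 3 in OSM-ESCs, beside 13.3% and 14.2% of all genes. They summed to 10.0 to 11.5 TPM in -LIF-ESCs, 31.6 to 31.8 TPM in LIF-ESCs and 20.1 to 20.4 TPM in OSM-ESCs, with Afp at 0 in the 4 libraries with cytokine. The list thus stood in the order of Lama1 and not in that of the fibrillar chains. Its part in the type IV results was not tested.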

How the data were processed

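The authors purified poly-A RNA, prepared libraries with NEBNext Ultra, trimmed reads with Trimmomatic, used HISAT2 for alignment to mm10 and featureCounts for gene counts, and deposited the TPM values of all 6 libraries. The annotation, strand setting, handling of reads with several matches and the step from counts to TPM are not given in the sources used here. The authors tested counts with DESeq2, which was not run here because TPM is not a count. Exon lengths of GENCODE M21 (GRCm38) matched 28404 symbols (99.4%), and 95.4% of values came out as whole reads within 0.02 read.

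log2(TPM + 1) was fitted with limma 3.58.1 in R 4.3.3 (lmFit, eBayes with a trend) on all 3 groups together, which left 3 residual degrees of freedom. The Benjamini-Hochberg adjustment ran over 18556 genes. Counting intervals cover counting error only. Scripts were tested on simulated data. Genes with values per library were the abundant members of each class, the 3 highest and 3 lowest called members of each comparison, members past the threshold between the cytokines, and the extremes of each list. Members not covered by that rule were added to account for each tested member. Members and gene lists were chosen with earlier results of these data known. Alternatives were a pseudocount of 0.1, no filter or a filter of 5 TPM, rescaling by the median ratio, fits of the 2 compared groups alone, eBayes with no trend, a block for the replicate number, each library left out, another fold limit, and voom on recovered reads. Tables and plots used Python 3.11.15, pandas 2.3.3 and matplotlib 3.10.9. Promoter windows came from RefSeq (GRCm38.p6).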

Additional observations from a re-analysis of the deposited data

Results flagged for a closer look

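For 7 members the effect of one cytokine against -LIF-ESCs differed from that of the other, tested as the direct comparison of OSM-ESCs with LIF-ESCs (limma, adjusted p under 0.05). On the log2 scale the difference was 0.63 for Col1a1, 0.58 for Col5a1, 0.49 for Col1a2, 0.60 for Thbs2, 0.48 for Thbs1, 0.45 for Bgn and 0.44 for Lox, each with both OSM-ESC libraries above both LIF-ESC libraries. Col5a1 is the one of these that fell against -LIF-ESCs, by less in OSM-ESCs than in LIF-ESCs. With 2 libraries a group, no library could be examined as an outlier.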

How the results depend on the processing

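Across all alternatives, no tested member changed its direction past a threshold. Members called higher against -LIF-ESCs numbered 21 to 32 in LIF-ESCs and 21 to 32 in OSM-ESCs, beside 25 in each. Without a limit on the fold change 4 members were lower in LIF-ESCs and 3 in OSM-ESCs, beside 1. The 7 members past the adjusted p between OSM-ESCs and LIF-ESCs became 4 at a pseudocount of 0.1, 5 with no filter, 10 with a filter of 5 TPM, 8 after rescaling and 28 with voom on recovered reads. They became 0 with eBayes without a trend, with only the groups compared and with a fold limit of 1. Over all genes, 86 were higher past the adjusted p in the main fit. At a pseudocount of 0.1, no filter, a filter of 5 TPM, rescaling and voom, the all-gene counts were 52, 65, 149, 82 and 971. At an unadjusted p under 0.05, 28 members were higher with eBayes without a trend and 30 with only the groups compared. The shares of all genes at that p in these fits are not given here. A block for the replicate number also gave 0 members past the adjusted p, with 26 higher at an unadjusted p under 0.05. Against -LIF-ESCs it changed no count of called members. Without the fold limit, members higher in OSM-ESCs went from 32 to 29 under the block. The numbers did not pair the samples (correlations of deviations of -0.04, -0.02 and 0.03). Reads limit Lox, Dcn, Lum and Col10a1, which had at most 5 in a -LIF-ESC library.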
